A study of Mus musculus with 20 samples.

Results

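The genes described here are 8 genes of cholesterol synthesis and its control, read in the aorta of mice in which the nuclear receptor PPARγ was activated by a drug or altered by a mutation. They are Hmgcs1, Mvk, Idi1, Fdps, Sqle and Cyp51, which code for enzymes, and Srebf2 and Insig1, which code for regulators. No lipoprotein receptor is among the 8. They were chosen by name and role, with earlier results of these data known. Their probe sets were those annotated with exactly 1 gene symbol, of which the array held 18 for these genes. They are 8 of 18193 genes with such a probe set, and all 8 are among the 11081 genes bright enough to be tested. Each gene was followed with its brightest probe set, and the other probe sets are reported beside it.

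Rosiglitazone is a thiazolidinedione, a drug class that activates PPARγ directly. Adult mice of strain C57BL/6J received it in their chow for 2 or 14 days, at a daily dose of 3 mg/kg or of 10 mg/kg. The chow controls of that experiment ate the same food without drug, and a single set of controls served both doses and both times. In the other experiment, mice carried the P465L change of PPARγ, described in the labels as dominant negative and knocked into the endogenous gene, so that it is present in every tissue that expresses PPARγ. Their wild-type littermates were the genetic controls, and both ate standard chow with no drug. The labels do not say whether the P465L mice carried 1 or 2 copies, nor on which strain they were kept. Each array held RNA pooled from 8 aortas, with 3 arrays per group except 2 for 10 mg/kg/day for 14 days, 20 arrays in 7 groups. An array is therefore a pool and not a mouse, the p-values measure the spread between pools, and the number of arrays limits the precision. In such bulk RNA, fewer cells of a type and less RNA per cell cannot be told apart.

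Cells make cholesterol from acetyl-CoA through mevalonate and squalene. When sterol is low in the endoplasmic reticulum, the SREBP2 protein, made from Srebf2, is carried to the Golgi, cut and sent to the nucleus, where it switches on genes of this pathway at short sterol regulatory elements, usually beside a site for the factor NF-Y. When sterol is plentiful, INSIG1 holds the SREBP2 carrier protein SCAP in the endoplasmic reticulum and the pathway slows. In the artery wall, smooth muscle and other cells balance this synthesis against uptake from lipoproteins and efflux.

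In the order of the pathway, Hmgcs1 (chr13:119690351-119708260 in GRCm38.p6) codes for the synthase that makes HMG-CoA. Mvk (chr5:114444264-114460591) codes for mevalonate kinase, and Idi1 (chr13:8885606-8892396) for the isomerase that makes dimethylallyl diphosphate. Fdps (chr3:89093588-89101967) codes for farnesyl diphosphate synthase, where sterol synthesis parts from other isoprenoids. Sqle (chr15:59315092-59331193) codes for squalene epoxidase, the first oxygen-dependent step of the sterol branch. Cyp51 (chr5:4080674-4104697) codes for lanosterol 14-alpha-demethylase. Insig1 (chr5:28071412-28078662) and Srebf2 (chr15:82147269-82205379) code for the regulators described above.

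The stretch just before the start of a gene is where SREBP2 and NF-Y act, and 3 of these stretches are shown because they hold the letters of the known sites in different ways. RefSeq sequence on GRCm38.p6 was matched by symbol for 6 of the 8 genes, all but Fdps and Sqle, and the 250 bases before the start are printed 5′ to 3′ on the strand of the gene. Capitals mark matches to 4 motifs searched on both strands: TCACNCCAC and its shorter form TCACCCCA for sterol regulatory elements, CCAAT for NF-Y (ATTGG when read on the other strand), and CACGTG for E-boxes. The shorter form was chosen after the promoters had been read, and a match to TCACNCCAC can also be a match to it.
Hmgcs1, chr13:119690101-119690350, plus strand: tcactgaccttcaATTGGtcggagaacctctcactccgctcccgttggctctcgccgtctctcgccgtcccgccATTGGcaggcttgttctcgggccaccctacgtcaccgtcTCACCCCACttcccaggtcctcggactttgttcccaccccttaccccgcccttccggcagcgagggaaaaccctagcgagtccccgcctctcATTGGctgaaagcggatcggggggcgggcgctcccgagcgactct
Srebf2, chr15:82147019-82147268, plus strand: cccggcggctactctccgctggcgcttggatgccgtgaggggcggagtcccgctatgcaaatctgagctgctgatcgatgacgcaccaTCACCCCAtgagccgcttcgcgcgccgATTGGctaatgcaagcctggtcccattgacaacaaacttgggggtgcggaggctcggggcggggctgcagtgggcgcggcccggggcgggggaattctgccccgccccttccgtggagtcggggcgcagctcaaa
Insig1, chr5:28071162-28071411, plus strand: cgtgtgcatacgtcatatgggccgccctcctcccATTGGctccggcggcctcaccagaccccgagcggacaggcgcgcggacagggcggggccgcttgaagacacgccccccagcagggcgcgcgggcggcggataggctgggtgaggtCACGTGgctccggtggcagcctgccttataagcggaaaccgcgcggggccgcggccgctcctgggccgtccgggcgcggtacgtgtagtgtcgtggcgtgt
In Hmgcs1 the element TCACCCCAC starts 137 bases before the start of the gene, with 3 CCAAT matches around it at 237, 176 and 45 bases. In Srebf2 the shorter form starts at 162 bases, with a CCAAT match at 135. Insig1 held neither form in this window, and had a CACGTG at 101 bases and a CCAAT match at 216. Of all 32851 promoters in the table, 1.05% held TCACNCCAC and 1.34% the shorter form, against 1 and 2 of the 6 genes here. CCAAT was in 6 of the 6 and in 33.8% of all promoters, and CACGTG in 1 of the 6 and in 6.02% of all. GGGCGG, the letters of an Sp1 site, was also in 6 of the 6 and in 32.7% of all, and is left in lower case. A match is a description of the letters and not a measured site.

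Smooth muscle cells make up most of the aortic wall, and all 7 of their markers were above the filter on dim genes, with a summed signal of 374591 to 531167 over the arrays, which fits the label of the tissue. Markers of fat and muscle around the vessel were also present, and their summed signals differed between groups. The summed signal of 7 adipocyte markers was 175866 to 320863 in the 11 rosiglitazone arrays, against 104396 to 175776 in chow. Most of that sum is Fabp4, Adipoq and Lpl, with mean signals of 103548.7, 43682.3 and 38848.8. Averaged over the treated groups, 5 of the 6 tested adipocyte markers were higher than in chow and 1 was lower. Plin4 hardly moved, with a mean log2 of 14.34 to 14.43 in the treated groups and 14.35 in chow. Brown adipocyte markers summed to 84334 to 211504 with rosiglitazone and 36897 to 79273 in chow. Liver markers were dim, with 2 of 7 above the filter. Chow array C stood apart from the other chow arrays: its skeletal muscle markers summed to 25065, against 2005 in A and 3056 in B, and its adipocyte markers were the lowest of all 20 arrays. The median over the probe sets of an array lay between 321.3 and 450.7.

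All values below are probe-set signals on a linear scale or log2 of the signal plus 72. Fold changes are differences of mean log2 values between groups, which understates changes of dim genes. A call means an adjusted p under 0.05 in limma, with Benjamini-Hochberg adjustment over all 11081 genes of a comparison. The 8 genes in 10 comparisons gave 80 values, and 1 of them was called: Srebf2, lower in wild-type littermates than in chow controls. For the rosiglitazone and P465L comparisons, no gene of the 8 was called.

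**Figure D1:**
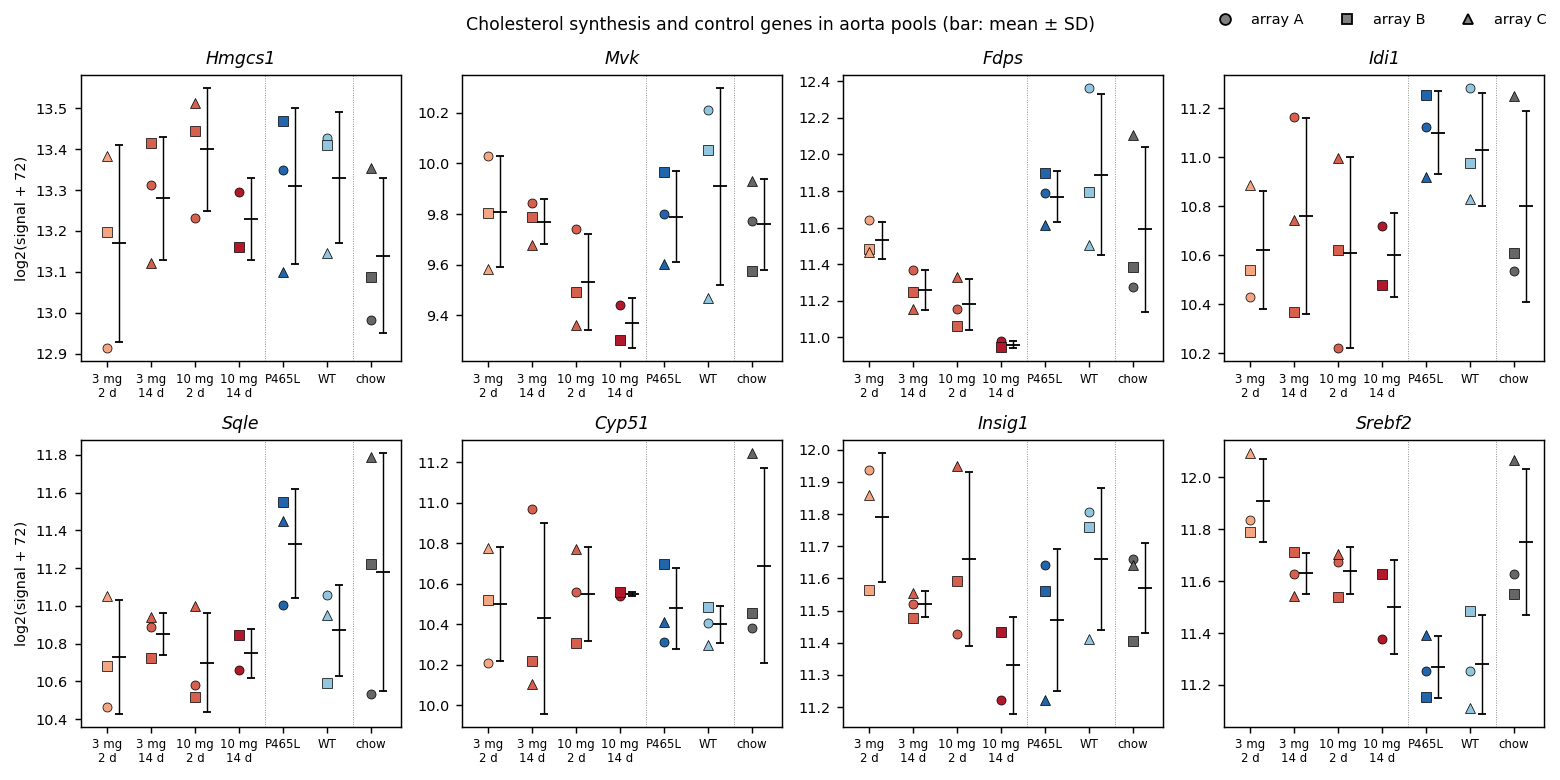
Log2 of the signal plus 72 (vertical axis, own scale per gene) in every array for the 8 genes, by group, with the rosiglitazone groups named by daily dose per kg and days (d), P465L mice, wild-type littermates (WT) and chow controls. Points are single arrays, shaped by the letter of the array, and the bar beside them is the mean ± SD (n = 3, or 2 at 10 mg for 14 days). With the probe sets used, Fdps is lowest at 10 mg for 14 days and Srebf2 in the P465L and wild-type littermate groups. Chow array C tops its group for 7 of the 8 genes.

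The levels of the 8 genes differed little between the 7 groups. The range of group means was widest for Fdps at 0.93 on the log2 scale, with a pooled SD between arrays of a group of 0.26. It was 0.64 for Srebf2 (pooled SD 0.17), 0.63 for Sqle (0.33), 0.54 for Mvk (0.22), 0.50 for Idi1 (0.31), 0.46 for Insig1 (0.19), 0.30 for Cyp51 (0.31) and 0.25 for Hmgcs1 (0.18). The range of group means and the SD between arrays are different measures, so a range above the SD is no test of a difference between groups. When the groups were ordered by their mean, the ranges of neighbouring groups overlapped in 6 of 6 places for every gene except Fdps, which had 4 that overlapped and 2 that did not.

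Rosiglitazone was first compared with chow over its 4 dose and time groups, which asks how the pathway in the aorta stands when PPARγ is active. The average log2 fold change was negative for 6 of the 8 genes, and 0 of 8 were called, against 0.433% of all genes tested. The median of the 8 was -0.15, while that of all tested genes was -0.02 with 55.0% of them negative. At an unadjusted p under 0.05 there were 2 of the 8, against 14.2% of all genes. These were Sqle and Fdps, described next.

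Fdps, at the branch to sterols, had signals of 3124, 2785 and 2760.5 at 3 mg for 2 days, 2575, 2359.9 and 2211 at 3 mg for 14 days, 2209, 2065 and 2504 at 10 mg for 2 days, and 1947 and 1899 at 10 mg for 14 days, against 2407, 2599.9 and 4336 in chow. The highest chow array, C, lay above all 11 treated arrays, while chow A and B lay among those given 3 mg. The average fold change of Fdps was -0.36 (SE 0.15, adjusted p = 0.295), and without chow array C it was -0.10 (adjusted p = 0.856). The groups by mean ran from wild-type littermates at the top through P465L, chow, 3 mg for 2 days, 3 mg for 14 days and 10 mg for 2 days to 10 mg for 14 days. The ranges of the 2 groups at 3 mg did not overlap, and neither did those of the 2 groups at 10 mg. The share of all genes with such gaps was not counted for these pairs. At 10 mg for 14 days against chow, 2 arrays against 3, 20.3% of all genes lay below and 14.8% above. Over both doses, 14 days against 2 days gave -0.25 for Fdps (SE 0.14, unadjusted p = 0.101, adjusted p = 0.999 in limma).

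Sqle, the epoxidase of squalene, had 1339.8, 1569 and 2051 at 3 mg for 2 days, 1826, 1619 and 1891 at 3 mg for 14 days, 1461, 1396 and 1972 at 10 mg for 2 days, and 1547.5 and 1769 at 10 mg for 14 days, against 1409, 2313 and 3469.6 in chow. Of the 3 chow arrays, 2 were above every treated array and A lay among the lowest treated ones. The average fold change was -0.42 (SE 0.19, adjusted p = 0.312). It was -0.12 without chow array C (adjusted p = 0.859) and -0.75 without chow array A (adjusted p = 0.139). Sqle has a single probe set here, so no other one could be set beside it.

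The other enzymes moved by less. Hmgcs1 had the highest average of the 8, 0.13 (SE 0.11, adjusted p = 0.646), with signals of 7646 to 11611 in the treated arrays and 8019 to 10394 in chow. Cyp51 had -0.19 (SE 0.18), Idi1 -0.15 (SE 0.18) and Mvk -0.14 (SE 0.15), with adjusted p-values of 0.693, 0.757 and 0.733. For these 4 enzymes the treated and chow arrays overlapped. Among the regulators, Srebf2 had an average of -0.08 (SE 0.11, adjusted p = 0.806) and Insig1 of 0.00 (SE 0.12, adjusted p = 0.993), with a 95% interval from -0.25 to 0.25 for Insig1. The arrays of 0 of the 8 genes were separate between treated and chow mice, while 0.803% of all genes had every treated array above chow and 1.26% every one below.

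**Figure D2:**
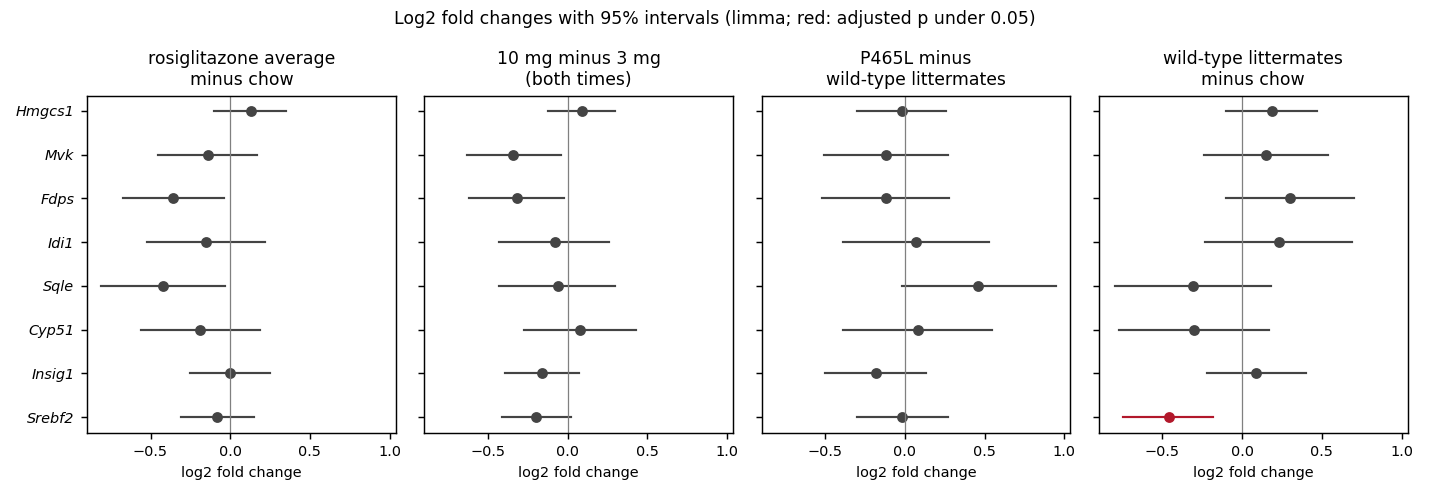
Log2 fold changes (horizontal axis) of the 8 genes with 95% intervals in 4 comparisons from limma, and in red the value past an adjusted p of 0.05. For the rosiglitazone average against chow, Sqle at -0.42 and Fdps at -0.36 lie furthest below 0, and Srebf2 at -0.46 in wild-type littermates against chow is the called value.

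Single groups against chow gave the same counts of calls, 0 of 8 in each. The median of the 8 was -0.02 at 3 mg for 2 days and -0.09 at 3 mg for 14 days, where 0% of all genes were called in both comparisons and 8.83% and 8.27% had an unadjusted p under 0.05, against 0 of the 8 in both. At 10 mg for 2 days the median was -0.17, with 0.505% of all genes called and 15.2% at an unadjusted p under 0.05, against 1 of the 8, Fdps at -0.41 (SE 0.19, adjusted p = 0.324), which was -0.15 without chow array C (adjusted p = 0.748). At 10 mg for 14 days 7 of the 8 were negative with a median of -0.24. In that comparison 0.271% of all genes were called and 12.6% had an unadjusted p under 0.05, against 1 of the 8, again Fdps.

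The 10 mg, 14 day group was where Fdps and Mvk stood lowest. Fdps had a fold change of -0.63 (SE 0.21, 95% interval -1.07 to -0.18, unadjusted p = 0.00824, adjusted p = 0.233), and -0.37 without chow array C (adjusted p = 0.469). Mvk, mevalonate kinase, had signals of 623 and 559.6, against 802, 691 and 903 in chow, a fold change of -0.39 (SE 0.21, adjusted p = 0.466). Its second probe set had 553 and 996 in the treated arrays, against 624, 711 and 1044 in chow, a fold change of -0.05 (SE 0.27, adjusted p = 0.984). With the brightest probe set of both genes, the 2 treated arrays lay below all 3 chow arrays, as they did for 20.3% of all tested genes, while 14.8% lay above. With 2 arrays against 3 such a separation is frequent. The same group had the lowest summed Schwann cell markers, 23314 to 24663 against 30914 to 32439 in chow (4 of 7 markers measured, 3 above the filter). Most of that sum is 1 gene, Pmp22, with a mean signal of 23546.3 over the arrays. Of the 3 tested markers, 2 were lower than in chow and 1 was higher, S100b, with a mean log2 of 10.24 against 9.85. The part of these differences in the values of Fdps and Mvk was not tested.

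Dose and time were compared within the treated mice, where no chow array enters. At 10 mg against 3 mg, 6 of the 8 genes were negative with a median of -0.12 (all genes -0.01), and 0 of 8 were called, as were 0% of all genes. Mvk had 783, 649 and 586 at 10 mg for 2 days and 623 and 559.6 at 10 mg for 14 days, against 973, 822 and 695 at 3 mg for 2 days and 848, 812 and 746 at 3 mg for 14 days. Of the 5 arrays at 10 mg, 1 lay within the range of those at 3 mg. Its dose difference was -0.34 (SE 0.14, unadjusted p = 0.0274, adjusted p = 0.357), and that of Fdps -0.32 (SE 0.14, unadjusted p = 0.0362, adjusted p = 0.368). Leaving out any 1 array of the 4 groups left these between -0.39 and -0.28 for Mvk and between -0.36 and -0.29 for Fdps. The second Mvk probe set, whose mean signal of 752.6 was close to the 784.4 of the first, had the other sign, 0.12 (SE 0.18, unadjusted p = 0.514). At an unadjusted p under 0.05 these were 2 of the 8, against 12.7% of all genes. No member had its 10 mg arrays all above or all below those at 3 mg, which 0.433% and 0.596% of all genes had.

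At 14 days against 2 days, Insig1 had the largest difference of the 8. Its signals were 2868, 2778 and 2938 at 3 mg for 14 days and 2319 and 2695 at 10 mg for 14 days, against 3847, 2955 and 3646 at 3 mg for 2 days and 2680, 3012 and 3882 at 10 mg for 2 days. Of the 5 arrays at 14 days, 4 lay above the lowest array at 2 days, so the times overlapped. The difference was -0.30 (SE 0.11, unadjusted p = 0.0149, adjusted p = 0.999). Srebf2, the other regulator, had -0.21 (SE 0.10, unadjusted p = 0.0568, adjusted p = 0.999). The median of the 8 was -0.07, with 0 of 8 called as for all genes (0%), and 1 of the 8 at an unadjusted p under 0.05, against 4.19% of all. For the interaction of dose and time, 0 of 8 were called, as were 0% of all genes, 0 of the 8 had an unadjusted p under 0.05, against 4.39% of all, and the lowest adjusted p of the 8 was 0.964.

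The P465L mice were compared with their littermates to ask how the pathway stands when PPARγ is impaired. None of the 8 was called, against 0.018% of all genes, and 0 had an unadjusted p under 0.05, against 7.43% of all. The median of the 8 was -0.02, with 3 positive and 5 negative. Sqle had the largest difference, with signals of 1983, 2921 and 2719.9 in P465L aortas and 2060.3, 1472 and 1912 in wild-type littermates. P465L arrays B and C were above all littermate arrays and A was below the highest of them. The fold change was 0.46 (SE 0.23, 95% interval -0.02 to 0.95, adjusted p = 0.673).

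The other genes differed by 0.18 or less in either direction between P465L mice and littermates. Insig1 had -0.18 (SE 0.15, adjusted p = 0.774). Fdps had 3468, 3740.1 and 3062 in P465L aortas, against 5207, 3483 and 2836 in littermates, where 1 littermate array was above the rest and 1 below (-0.12, SE 0.19, adjusted p = 0.890). Srebf2 had 2371, 2207 and 2618 in P465L aortas and 2369, 2796 and 2139 in littermates, a difference of -0.02 with a 95% interval from -0.30 to 0.27. No gene of the 8 had separate groups, against 7.35% of all genes above and 6.99% below in P465L mice. Liver markers summed to 539 to 1239 in P465L arrays, against 2730 to 9053 in littermates, and brown adipocyte markers to 37525 to 129140, against 89526 to 183642. Their part in the values of the 8 genes was not tested.

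The untreated groups of the experiments, wild-type littermates and chow controls, were set side by side because neither had received drug or mutation. Strain, husbandry and experiment cannot be told apart in this comparison. It had 6.49% of all genes called (719 genes) and 22.5% at an unadjusted p under 0.05, against 1 of the 8 by both counts. Srebf2 fell by 0.46 on the log2 scale in littermates (SE 0.14, adjusted p = 0.0473). Its signals were 2369, 2796 and 2139 in littermates, against 3091, 2924 and 4212 in chow, a mean log2 of 11.28 ± 0.19 against 11.75 ± 0.28 (SD, n = 3 each). All 3 littermate arrays lay below all chow arrays, as for 16% of all genes, while 11.8% lay above.

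The Srebf2 call was close to the threshold. Over 17 alternative settings the adjusted p ranged from 0.0392 to 0.238 and 7 kept the call, with a negative difference in all 17. Without chow array C the difference was -0.30 (adjusted p = 0.238), and leaving out chow array A, or littermate array A or C, also ended it (adjusted p = 0.0632, 0.101 and 0.145). The dimmer Srebf2 probe set had 1646, 1587 and 1176 in littermates and 1527, 1341 and 1980.2 in chow, a difference of -0.13 (SE 0.18, adjusted p = 0.826 in a fit over single probe sets). In that fit the brighter probe set had an adjusted p of 0.0792. Other markers moved with the same comparison. Brown adipocyte markers summed to 89526 to 183642 in littermates, against 36897 to 79273 in chow, with 2 of 7 called higher, and adipocyte markers to 193622 to 280930, against 104396 to 175776, with 1 of the 6 tested called higher. Smooth muscle markers summed to 479210 to 491546, against 390227 to 446024. Of the 7 smooth muscle markers, 5 were higher in littermates and 2 lower, among these Lmod1 with a mean log2 of 13.25 against 13.74. Skeletal muscle markers summed to 14148 to 74348, against 2005 to 25065, with 0 of the 6 tested called by limma and 5 at an unadjusted p under 0.05. Their part in the Srebf2 value was not tested.

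Across the 7 groups, mean Srebf2 with the brighter probe set was lowest in both groups of the P465L experiment. Its signals at 3 mg for 2 days were 3579.8, 3464 and 4299.7, at 3 mg for 14 days 3090.4, 3284 and 2913, at 10 mg for 2 days 3192, 2902 and 3267, and at 10 mg for 14 days 2585 and 3091. The 6 arrays of P465L mice and littermates ran from 2139 to 2796, and the chow arrays from 2924 to 4212. The next group in the order of means, 10 mg for 14 days, was 0.22 above the littermates on the log2 scale, with overlapping ranges. The dimmer Srebf2 probe set did not follow this order. It had 951, 1327 and 1135 at 10 mg for 2 days and 1116 and 1146 at 10 mg for 14 days. In P465L aortas it had 1197, 1665 and 1704, and in littermates 1646, 1587 and 1176.

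The other 7 genes were not called between littermates and chow, with fold changes from -0.31 for Sqle to 0.30 for Fdps. Hmgcs1 is a case in which its probe sets differ. The brightest had 0.19 (SE 0.14, adjusted p = 0.449). The next, whose label marks probes shared by several transcripts of a gene, had signals of 11677, 12099.7 and 9536 in littermates, against 6492, 6562 and 8690.1 in chow. All littermate arrays were above all chow arrays there, as for 11.8% of all tested genes. The difference was 0.62 (SE 0.14, adjusted p = 0.0226 in the fit over probe sets). The third had 0.40 (SE 0.14, adjusted p = 0.165), the fourth 0.14 and the dimmest 0.21. The label of the brightest marks probes that may match other sequences, so its level may hold signal of other transcripts.

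**Figure D3:**
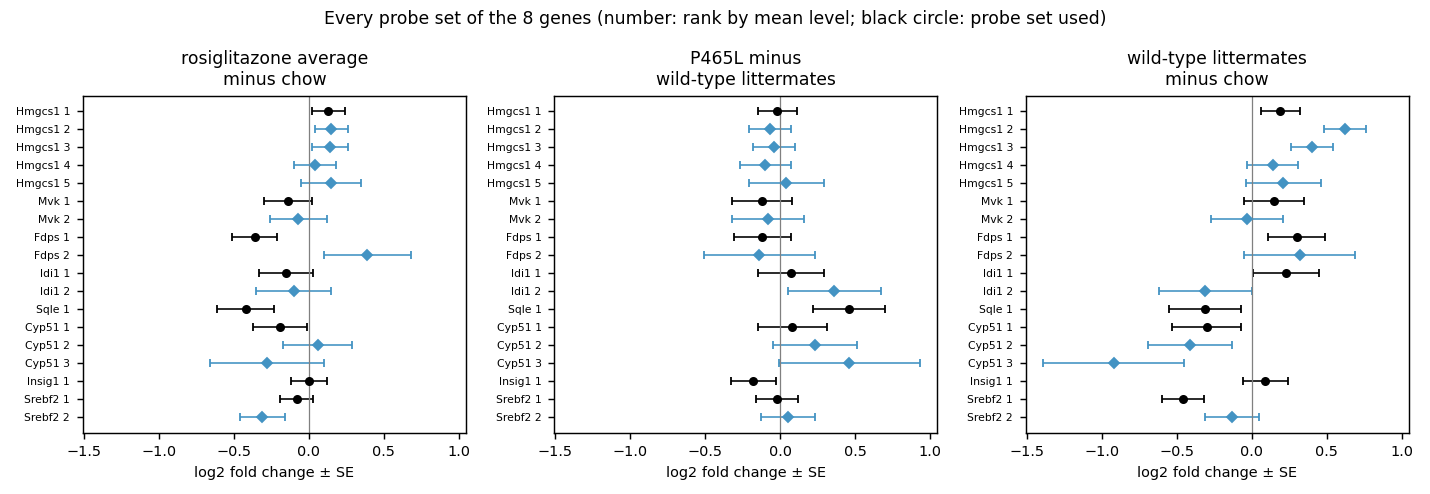
Log2 fold changes ± SE (horizontal axis) of every probe set of the 8 genes in 3 comparisons, numbered by mean level within each gene. Black circles are the probe sets used and blue diamonds the others. The second Hmgcs1 probe set lies at 0.62 in wild-type littermates against chow, beside 0.19 for the first, and the second Srebf2 probe set at -0.13, beside -0.46.

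Probe sets of the remaining genes were compared in the same way. The second probe set of Fdps was dim (2.9 to 169 over the arrays) and so was the third of Cyp51 (10.5 to 247), so their fold changes carry little weight. The second Mvk probe set had -0.07 for the rosiglitazone average (SE 0.19), beside -0.14 for the first, and the pair differed in sign for dose. The second Srebf2 probe set had -0.31 (SE 0.15, unadjusted p = 0.0491, adjusted p = 0.471), beside -0.08. For 10 mg against 3 mg it had -0.33 (SE 0.14, unadjusted p = 0.0274, adjusted p = 0.496 in limma), beside -0.20. Against chow it had -0.48 at 10 mg for 2 days and -0.47 at 10 mg for 14 days (adjusted p = 0.312 and 0.488 in limma). The second Idi1 probe set read 2269 in chow array C, 2227 in array C at 10 mg for 2 days and 1644 in array C at 3 mg for 2 days, with 802 to 1418 in the other 17 arrays. The first Idi1 probe set had 2366, 1969 and 1819 in those arrays, within a range of 1121 to 2422. In P465L mice the second Idi1 probe set was above littermates in every array (1215, 1418 and 1120, against 989, 1053 and 836), a difference of 0.36 (SE 0.31, adjusted p = 0.905). Of all tested genes, 7.35% had every P465L array above littermates.

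In 5 of the 7 groups a single array was the highest for most of the 8 genes. Chow array C was the highest chow array for 7 of the 8, array C at 10 mg for 2 days for 7, array C at 3 mg for 2 days for 5, littermate array A for 6 and P465L array B for 6. In the other groups no array led: at 10 mg for 14 days arrays A and B were highest for 4 genes each, and at 3 mg for 14 days A for 4, B for 2 and C for 2. The mean of the 8 centred log2 values was 0.44 in chow array C, the highest of all 20 arrays, and -0.14 and -0.07 in chow A and B. It was -0.20 and -0.19 in the 2 arrays at 10 mg for 14 days, the lowest. Between arrays of a group this mean had an SD of 0.18. Chow array C also had the highest skeletal muscle and lowest adipocyte marker sums of its group, and the part of these in its values was not tested.

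**Figure D4:**
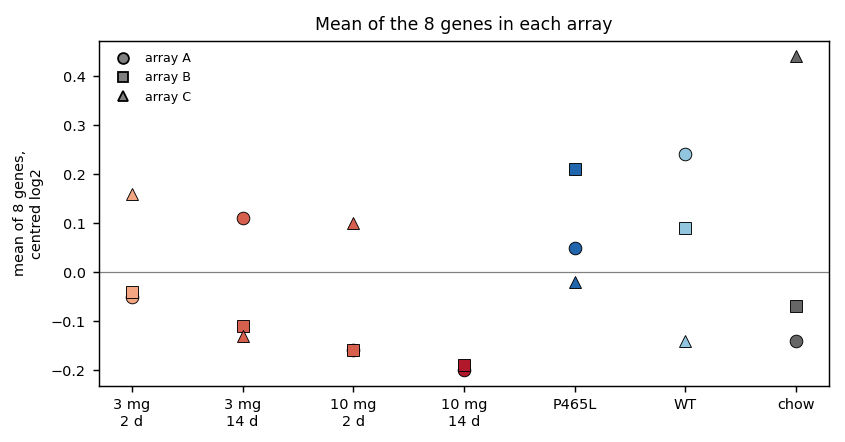
Mean of the 8 centred log2 values (vertical axis) in each array, by group, with points shaped by the letter of the array. Chow array C stands at 0.44, above all others, and the arrays at 10 mg for 14 days lie at -0.20 and -0.19.

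Within groups, after group means were taken away, the pairs of genes most alike over the 20 arrays were Idi1 and Cyp51 (Pearson r 0.76), Mvk and Fdps (0.67), and, at 0.66 each, Fdps and Idi1, and Sqle and Cyp51. Sqle and Mvk had -0.15 and Sqle and Insig1 0.05. These values describe 20 arrays that share scaling and pools. Neither they nor those below were computed again without chow array C, the highest chow array for 7 of the 8 genes. Among other tested genes outside the cholesterol lists, those most like the mean of the 8 over the 20 arrays were Scd2 (r 0.74), a stearoyl-CoA desaturase, H1f2 (0.69), a linker histone, Ntrk3 (0.69), a neurotrophin receptor, Vstm2b (0.68) and Zfp36l1 (0.67), an RNA-binding protein. Over the 7 group means their r was 0.89, 0.94, 0.52, 0.66 and 0.89. Of the other cholesterol enzymes, Msmo1 (0.66), Dhcr7 (0.60), Hsd17b7 (0.56) and Sc5d (0.52) came closest, and Lss had -0.21.

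The rest of the pathway was described by lists of 13 other synthesis enzymes (11 tested), 5 other genes of SREBP control (5 tested), 11 genes of cholesterol uptake, efflux and esterification (9 tested) and 6 other isoprenoid enzymes (4 tested). No gene of these lists was called by limma in any of the 10 comparisons. For the rosiglitazone average, an unadjusted p under 0.05 was found for 2, 0, 2 and 0 of the tested genes of the 4 lists in that order. The share over all genes was 14.2%. For the rosiglitazone average, 10 of the 11 other synthesis enzymes were negative, against 55.0% of all genes. Their median was -0.18, beside -0.15 for the 8 genes and -0.02 for all genes. The most negative were Dhcr7, the last reductase of the pathway, at -0.49 (SE 0.18, adjusted p = 0.217) and Msmo1, a methylsterol oxidase, at -0.38 (SE 0.17, adjusted p = 0.321). Treated and chow arrays overlapped for both. Unlike those of the 8 genes, these values were not computed again without chow array C. At 10 mg for 14 days Dhcr7 had -0.75 (SE 0.25, adjusted p = 0.232), with both treated arrays below chow, as for 20.3% of all tested genes.

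Among the genes of SREBP control, Scap, the carrier of the SREBP proteins, had the lowest p of all the cholesterol genes in the dose comparison. At 10 mg against 3 mg it had -0.49 (SE 0.10, unadjusted p = 9.35e-05, adjusted p = 0.173). Every 10 mg array lay below every 3 mg array, as for 0.596% of all tested genes. Srebf1, which codes for the SREBP proteins of fatty acid synthesis and is made from another gene than Srebf2, had -0.31 (SE 0.10, adjusted p = 0.267). The 5 control genes did not move together with dose: 3 were negative and 2 positive, from -0.49 to 0.23. Of the 5, 3 had an unadjusted p under 0.05, against 12.7% of all genes. Against chow, Scap had -0.41 at 10 mg for 14 days (adjusted p = 0.276) and 0.28 at 3 mg for 2 days (adjusted p = 0.571). Insig2, another of the 5 control genes, had 0.10 for the rosiglitazone average (SE 0.10, adjusted p = 0.684).

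Of the tested genes that move cholesterol, 5 of 9 were positive and 4 negative for the rosiglitazone average, with a median of 0.02. At 10 mg against 3 mg, 8 of the 9 were positive with a median of 0.11 (all genes -0.01, with 51.8% negative). An unadjusted p under 0.05 was found for 2 of the 9, against 12.7% of all genes. These were Abcg1, a cholesterol exporter, at 0.32 (SE 0.13, adjusted p = 0.344) and Lrp1, an endocytic receptor, at -0.21 (SE 0.08, adjusted p = 0.337). For the rosiglitazone average against chow, Scarb1, a receptor for high-density lipoprotein, had 0.34 (SE 0.15, adjusted p = 0.321). In that same comparison Npc1, which moves cholesterol out of lysosomes, had -0.25 (SE 0.11, adjusted p = 0.329). In P465L mice against littermates, Nr1h3, the oxysterol receptor LXRα, had -0.40 (SE 0.20, adjusted p = 0.673), and Stard4, a sterol carrier, 0.36 (SE 0.21, adjusted p = 0.684). Of the other enzymes Dhcr7 had -0.39 (SE 0.23, adjusted p = 0.684) and Msmo1 0.37 (SE 0.21, adjusted p = 0.683). In littermates against chow, Nsdhl, a sterol dehydrogenase, had 0.43 (SE 0.18, adjusted p = 0.158), Stard4 0.44 (SE 0.21, adjusted p = 0.213), Abcg1 -0.40 (SE 0.18, adjusted p = 0.179) and Ggps1, which makes geranylgeranyl diphosphate, -0.33 (SE 0.14, adjusted p = 0.147). Idi2, the second isomerase gene, was below the filter with a mean signal of 26.6.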

How the data were processed

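Messenger RNA was measured in 20 pools of 8 mouse aortas on Affymetrix Mouse Genome GeneChip arrays. The deposited values are linear intensity values, 1 per probe set, which the authors computed with MAS5, per the submitters' processing notes. No version, detection call or filter is given in the sources used here. A 2% trimmed mean of 1500 was found on each array, a scaling that takes most of the signal to be alike between arrays.

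Of 45101 probe sets, 34945 had exactly 1 gene symbol. An offset of 72, which is the 20th percentile of the values, was added to signals before log2. Each gene used the probe set with the highest mean, and entered the tests where that mean was at or above the 50th percentile over probe sets, a signal of 352. One model with 7 group means was fitted over the 20 arrays with limma 3.58.1 in R 4.3.3 (13 residual and 7.3 prior degrees of freedom, variance trend, two-sided tests, Benjamini-Hochberg over 11081 genes, called under 0.05). The fit was tested on simulated data.

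Named genes were all 8 members, any called gene of the other lists, otherwise the 2 with the largest change per list and comparison, of which the text gives a selection, and the 5 genes most like the mean of the 8. The members and lists were chosen with earlier results of these data known. Arrays of the same letter were checked for pairing: over 57 pairs the median correlation of their deviations was 0.025 (-0.301 to 0.358), so no pairing was used. The alternatives were offsets of 16 and 200, no filter and a 75th percentile filter, quantile normalization, median centring, the mean of a gene's probe sets, each other probe set, no variance trend, array weights, only the groups compared, the array letter as a block, and leaving out each array. Tables and figures were made with Python 3.11.15, pandas 2.3.3, numpy 2.4.6 and matplotlib 3.10.9. Gene positions and promoters are those of RefSeq on GRCm38.p6.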

Additional observations from a re-analysis of the deposited data

Results flagged for a closer look

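Srebf2 stood apart in the rosiglitazone groups because all arrays at 3 mg for 2 days lay above the chow mean, while all arrays at 3 mg for 14 days and at 10 mg for 2 days lay below it. At 3 mg for 14 days against 3 mg for 2 days, the shifts from the chow mean were -0.12 and 0.16 on the log2 scale, 0.28 apart. At 10 mg for 2 days against 3 mg for 2 days they were -0.11 and 0.16, which is 0.27 apart. Without chow array C the shifts against chow were 0.04 at 3 mg for 14 days, 0.05 at 10 mg for 2 days and 0.32 at 3 mg for 2 days, so they no longer had opposite signs. All these values are of the brighter Srebf2 probe set. The dimmer one had shifts of -0.35 at 3 mg for 14 days, -0.48 at 10 mg for 2 days and 0.06 at 3 mg for 2 days. They were not computed again without chow array C. The single pairs of treated groups were not tested. Over both doses the difference between times had an adjusted p of 0.999 in limma, and over both times that between doses 0.427. Both pairs use the same chow controls and the same arrays at 3 mg for 2 days.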

How the results depend on the processing

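For the 79 uncalled values of the 8 genes, 1499 values recomputed under the other settings gave 0 past the threshold, and 82 had the other sign. The call of Srebf2 in wild-type littermates against chow was lost, leaving 0 of 8 genes called, with no filter on dim genes (adjusted p = 0.0682), quantile normalization (0.0658), median centring (0.0809), the mean of the probe sets (0.231), no variance trend (0.0619) and only the groups compared (0.109). It was kept with both offsets, the stricter filter, array weights and the replicate block (adjusted p = 0.046). Leaving out single arrays gave 0 to 1 genes called there. The cause of these changes was not tested, except that more genes tested or fewer arrays change the adjustment and the spread by construction. Leaving out single arrays moved the median of the 8 genes between -0.24 and 0.06 for the rosiglitazone average, and between -0.27 and 0.05 at 10 mg for 2 days, where the positive values are those without chow array C. With the 10 other probe sets, 1 uncalled value passed the threshold, that of the second Hmgcs1 probe set in littermates against chow, and 29 values had the other sign. With the replicate block, although the letters did not pair the arrays, the medians were -0.15 for the average and -0.23 at 10 mg for 14 days, and the counts of calls did not change. The SE of a single group against its control was 0.14 to 0.26 on the log2 scale for the 8 genes, which limits the size of difference that 2 or 3 pools a group can show.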
